A study of Mus musculus with 9 samples.

Results

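The 10 genes Isg15, Rsad2, Ifit1, Ifit2, Ifit3, Usp18, Irf7, Isg20, Slfn4 and Oasl2 are classical interferon-induced genes and were followed in the cells of young mouse bone marrow. They were taken by symbol from 15265 genes in the count tables. They had been chosen by their counts in erythroid and myeloid cells of these same libraries, so levels by lineage are given below as a description and carry no test. A table that did not list a symbol was read as holding 0 counts of it: Isg15, Rsad2, Ifit2, Isg20 and Slfn4 were listed in 9 of 9 tables, Irf7 in 7, Usp18 in 5, Oasl2 in 4, Ifit1 in 3 and Ifit3 in 2.

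The bone marrow came from young C57BL/6 mice (2 to 3 weeks of age), and its cells were profiled without sorting by Drop-seq, in which each cell shares a droplet with a barcoded bead. NG2-cre/Pot1a fl/fl mice gave 4 libraries and control NG2-cre/Pot1a wt/wt mice 5. Both genotypes carry the Cre recombinase, which the promoter of NG2 (gene Cspg4) drives in mesenchymal cells; in Pot1a fl/fl mice it removes Pot1a, which encodes a telomere-binding protein, in those cells and not by design in blood cells. Which mouse each library came from is not labelled, and fewer mice than libraries are described for each group. Some libraries may therefore share a mouse, and p-values measure a spread between libraries that may in part be technical and may be too small.

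Interferons are secreted proteins that signal through paired receptors and the kinases Jak1 and Tyk2 to transcription factors, Irf9 among them, which bind the interferon-stimulated response element in the promoters of their target genes. Isg15 encodes a ubiquitin-like protein that is joined to other proteins, and Usp18 the protease that removes it and damps receptor signalling. Rsad2 (viperin) and Isg20, an exonuclease, act against viral replication, and Ifit1, Ifit2 and Ifit3 encode proteins of a family that binds viral RNA and other proteins. Irf7 encodes a transcription factor that amplifies interferon production, Oasl2 a member of the oligoadenylate synthetase family, and Slfn4 a Schlafen protein of mouse myeloid cells. In bone marrow, interferons are known for their action on stem cells and on developing red and white cells.

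Of 900 barcodes, 899 were kept. Total counts ran from 119459 to 465277 per library and median counts per cell from 955.5 to 3704, so a gene at a few CPM (counts scaled to the same total in every library or cell group) rests on single molecules, each counted as a UMI. Barcodes were shared in 1 of 36 pairs of libraries: 19 of 100 were common to Pot1a wt/wt 2 and 3. Those cells were counted once where cells are counted (880 cells in all), and tests are also given with both libraries as 1. Xist and Y-linked genes showed 3 libraries of male cells (Pot1a fl/fl 2, Pot1a wt/wt 2 and 3) and 6 of female cells. Pot1a itself gave 1 to 15 counts in Pot1a fl/fl libraries and 2 to 10 in Pot1a wt/wt libraries, and since the deletion is directed to mesenchymal cells this does not check the labels. Erythroid-like cells (148, cluster 1) held counts of 25 of 25 erythroid markers, granulocyte-like cells (262, clusters 2, 6 and 9) of 22 of 22 granulocyte markers and monocyte/macrophage-like cells (62) of 17 of 20 of theirs. B-lineage-like cells (228) held counts of 22 of 22 markers and serve as a comparison. The 99 cells of cluster 5, led by Mt2, Fam132a and Car1, and the 67 of cluster 7, led by Eif4h and Ctla2a, had too few markers to be named.

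The response element is shown because it is the sequence bound by the factors that interferon activates, and it was looked for in the promoter of each member. The 250 bases upstream of the start were searched on both strands for GAAA followed by any 2 bases and a second GAAA (TTTC, 2 bases and TTTC where it lies on the opposite strand) in RefSeq promoters of GRCm38.p6, which held 9 of the 10 genes; Usp18 was not matched. A match was found for Isg15, Rsad2, Ifit1 and Ifit3, and in 2.98% of all 32851 promoters. Counted by gene it was found in 936 of 27025 (3.46%). In each stretch below, printed 5′ to 3′ on the strand of the gene, capitals mark the matches, and in Isg15 3 matches overlap.
Isg15, chr4:156200855-156200916, minus strand: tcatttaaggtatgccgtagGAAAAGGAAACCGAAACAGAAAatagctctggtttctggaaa
Rsad2, chr12:26456543-26456592, minus strand: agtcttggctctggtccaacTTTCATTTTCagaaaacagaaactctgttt
Ifit1, chr19:34640765-34640833, plus strand: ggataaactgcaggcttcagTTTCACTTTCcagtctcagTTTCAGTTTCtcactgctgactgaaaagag
Ifit3, chr19:34583353-34583436, plus strand: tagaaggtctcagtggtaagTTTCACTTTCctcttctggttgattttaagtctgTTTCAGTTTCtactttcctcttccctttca
The first match begins 78 bases before the start in Isg15, 120 in Rsad2, 104 in Ifit1 and 156 in Ifit3. These letters were not found in the windows of Isg20 (3 starts), Ifit2 (2 starts), Irf7, Oasl2 and Slfn4.

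Isg15, Rsad2 and Isg20 were concentrated in erythroid-like cells. This cell group made up 16.5% of cells and 14.8% of counts, and it held 72.9% of all Isg15 counts, 56.0% of Rsad2 counts and 64.2% of Isg20 counts. Slfn4 was the myeloid gene of the set, with 83.1% of its counts in granulocyte-like cells, and the other 6 genes were close to the detection limit in each lineage. The map of the share of cells with each gene by cell group shows these separate blocks.

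**Figure D1:**
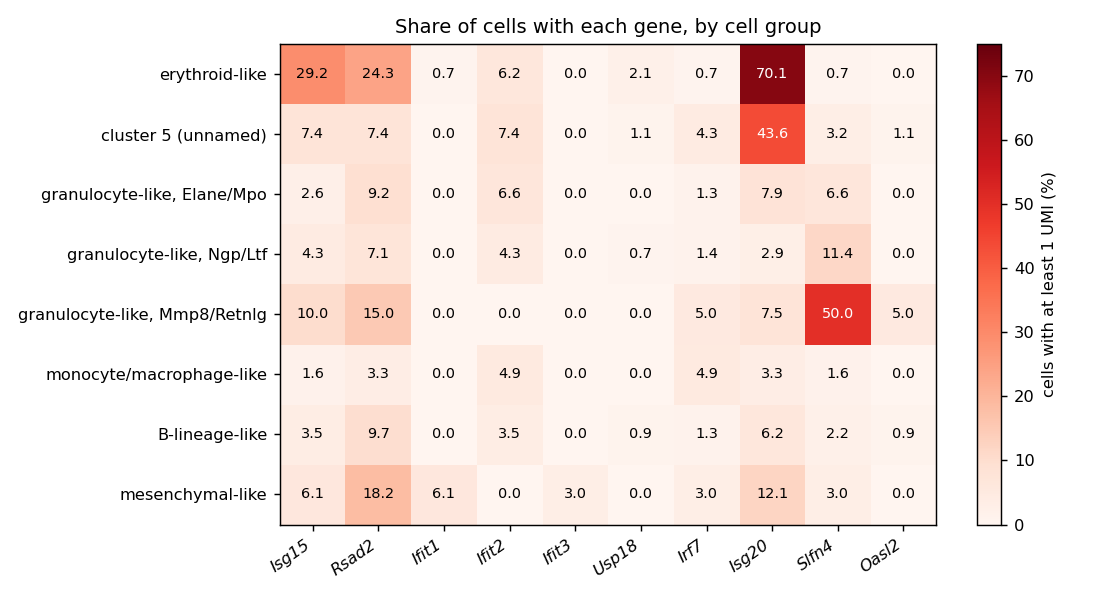
Share of cells (%) with at least 1 UMI of each gene (columns) in each cell group (rows), cells of both genotypes together and shared cells counted once. The 3 highest shares were Isg20 in erythroid-like cells (70.1%), Slfn4 in granulocyte-like cells led by Mmp8 and Retnlg (20 of 40 cells) and Isg20 in cluster 5 (43.6%).

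Isg15 (chromosome 4, 156199424 to 156200818, GRCm38) was found in 42 of 144 erythroid-like cells, 29.2% (95% interval 21.9 to 37.3, exact Clopper-Pearson; such intervals cover counting error only). In B-lineage-like cells, used as a comparison, the share was 3.54% at a similar depth (median 2116 UMIs per cell, against 2321 in erythroid-like cells). It was 4.69% in granulocyte-like and 1.64% in monocyte/macrophage-like cells. With each cell thinned to 1000 UMIs the shares were 19.1% of 131 erythroid-like cells and 0.505% of 198 B-lineage-like cells. The level summed over cells was 355 CPM in erythroid-like cells, against 23.4 CPM in granulocyte-like and 16 CPM in B-lineage-like cells.

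Rsad2 (chromosome 12, 26442746 to 26456452) was also highest in erythroid-like cells, and was higher than Isg15 in B-lineage-like and granulocyte-like cells. How much of the counts outside erythroid-like cells was background was not tested. It was found in 24.3% of erythroid-like cells (17.6 to 32.1), against 9.73% of B-lineage-like and 8.98% of granulocyte-like cells, and thinned to 1000 UMIs in 14.5%, 2.53% and 4.44%. Its summed level was 316 CPM in erythroid-like cells, 44.0 CPM in granulocyte-like and 39.9 CPM in B-lineage-like cells. It was 48.9 CPM in monocyte/macrophage-like cells, from 7 counts in 2 cells, and 7.38 CPM from 1 count with doublets removed. The mesenchymal-like cluster, of 33 cells, stood second at 206 CPM, with 11 counts in 6 cells (18.2%, 6.98 to 35.5). That cluster also held many counts of erythroid markers, 55845.5 CPM in sum, against 38969.8 CPM for its mesenchymal markers. Its Rsad2 level therefore does not show which cell type held the gene.

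Isg20 (chromosome 7, 78913424 to 78920396) was the most abundant of the 10 genes, with 358 counts in all. It was found in 70.1% of erythroid-like cells (62.0 to 77.5) and in 6.19% of B-lineage-like cells, with 596 and 27.1 CPM. Unlike Isg15 and Rsad2, it was also well above its B-lineage-like level in cluster 5, with 43.6% of 94 cells and 165 CPM. There Isg15 was at 20.9 CPM and Rsad2 at 29.3 CPM. Cluster 5 was deeper (median 3978 UMIs per cell), and thinned to 1000 UMIs the Isg20 share was 11.1% there and 47.3% in erythroid-like cells.

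Within erythroid-like cells, Isg15 and Rsad2 were highest in the cells richest in globin RNA, which builds up as red cell precursors mature. The cells were divided after these values had been seen into 4 bins of 37 cells by the share of counts from Hba-a1, Hba-a2, Hbb-bs and Hbb-bt, so no test is given. Isg15 had 6, 14, 49 and 68 counts from the lowest bin to the highest, or 49.7, 127, 564 and 998 CPM. Rsad2 had 10, 12, 18 and 82 counts, or 82.8, 109, 207 and 1204 CPM. Isg20 differed less, with 51, 54, 72 and 53 counts, or 422 CPM in the lowest bin and 778 CPM in the highest. With globin counts left out of the totals, the highest bin stood at 1587 CPM for Isg15, 1914 CPM for Rsad2 and 1237 CPM for Isg20.

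**Figure D2:**
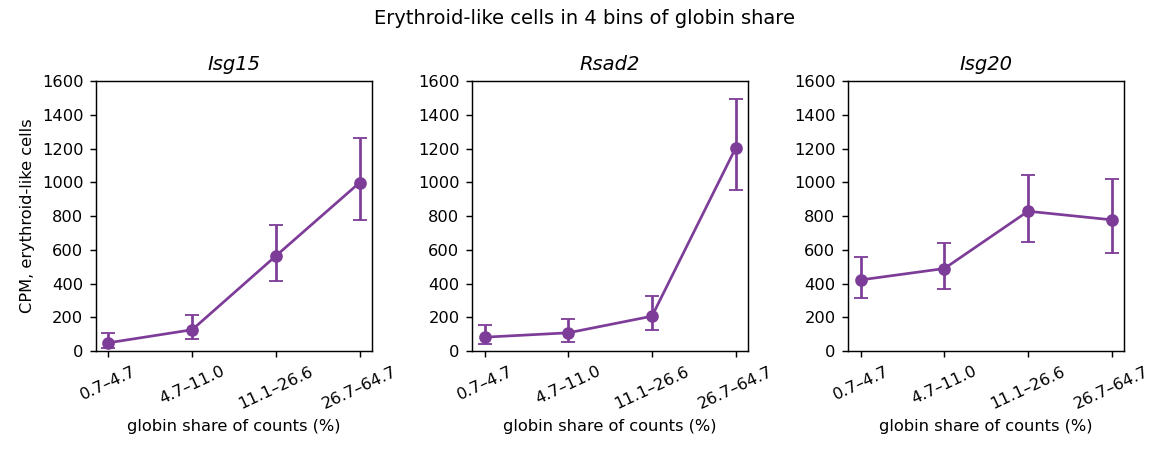
Level (CPM) of Isg15, Rsad2 and Isg20 in erythroid-like cells in 4 bins of globin share (% of counts), 37 cells each from both genotypes; bars are 95% Poisson intervals, which cover counting error only. Isg15 and Rsad2 reach 998 and 1204 CPM in the highest bin, where Isg20 stands at 778 CPM.

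A single cell of Pot1a wt/wt 1 gave 40 of the 82 Rsad2 counts of the highest bin. Without that cell the bin stood at 639 CPM, and without the whole of Pot1a wt/wt 1 at 425 CPM, still the highest of the 4 bins. Isg15 stood at 689 CPM in the highest bin without Pot1a wt/wt 5. The steps were not the same in both genotypes. Isg15 stood at 86.1, 114, 70.5 and 378 CPM in Pot1a fl/fl cells of the 4 bins, and at 34.9, 138, 803 and 1332 CPM in Pot1a wt/wt cells, so the increase over the bins came mainly from Pot1a wt/wt cells. Rsad2 stood at 0, 19.0, 0 and 545 CPM in Pot1a fl/fl cells, and at 116, 190, 308 and 1558 CPM in Pot1a wt/wt cells. In Pot1a fl/fl cells the values of both genes outside the highest bin rest on 0 to 6 counts a bin. The share of cells with a count moved less than the level: Isg15 was found in 10.8%, 21.6%, 32.4% and 48.6% of cells from the lowest bin to the highest, and Rsad2 in 16.2%, 21.6%, 24.3% and 35.1%. The cells of the highest bin were also the shallowest, with a median of 1632 UMIs against 2740 in the lowest.

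Slfn4 (chromosome 11, 83175186 to 83190216) was highest in the granulocyte-like cells led by Mmp8, Retnlg, Mmp9 and Cxcr2, genes of late neutrophils. This late cluster held 43.1% of all Slfn4 counts, and the cluster led by Ngp, Camp and Ltf 32.3%. Slfn4 was found in 20 of the 40 cells of the late cluster (95% interval of the share 33.8 to 66.2%) at 428 CPM. The share was 11.4% in the cluster led by Ngp, Camp and Ltf, 6.58% in the cluster of earlier cells led by Elane, Ctsg and Mpo, and 2.21% in B-lineage-like cells. In the late cluster there were 16 counts in 21 Pot1a fl/fl cells (429 CPM) and 12 counts in 19 Pot1a wt/wt cells (426 CPM), and Slfn4 was seen in 4 of 4 Pot1a fl/fl and 5 of 5 Pot1a wt/wt libraries. With so few cells in a library, no test was made in this cluster. In erythroid-like cells Slfn4 had 1 count.

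Ifit2 (chromosome 19, 34550694 to 34576419) was thinly spread, with 50 counts in 9 libraries. It was found in 6.25% of erythroid-like, 7.45% of cluster 5, 4.30% of granulocyte-like, 4.92% of monocyte/macrophage-like and 3.54% of B-lineage-like cells, shares whose intervals overlap, and its erythroid counts lay in the cells poor in globin (7, 5, 2 and 0 counts from the lowest bin to the highest).

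Ifit1 and Ifit3 (chromosome 19, 34640871 to 34650009 and 34583531 to 34588731), whose promoters hold the same element as those of Isg15 and Rsad2, had 5 and 3 counts in all libraries together. In erythroid-like cells Ifit1 had 1 count, and Ifit3 had 0 in 144 cells, which allows a share of cells with a UMI of up to 2.08% (3 counts of the total) and sets no limit on the share that express the gene. Of the Ifit1 counts 3 of 5, and of the Ifit3 counts 2 of 3, came from the mesenchymal-like cluster. Those 2 Ifit3 counts and 1 of its Ifit1 counts lay in 1 cell marked as a doublet. That cell also held 23 counts of the macrophage marker C1qb and 4 of Col1a1, so these counts do not place the genes in mesenchymal cells. Usp18 (chromosome 6, 121245906 to 121270917) had 10 counts, 4 of them in erythroid-like cells. These 4 were all in the bin poorest in globin. Irf7 (chromosome 7, 141262706 to 141266481) had 22 counts, of which 5 were in monocyte/macrophage-like cells, 5 in granulocyte-like cells, 5 in cluster 5 and 1 in erythroid-like cells. Oasl2 (chromosome 5, 114896936 to 114912234) had 6 counts, with 0 in erythroid-like cells.

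Isg15 and Rsad2 went together in the same cells. Among erythroid-like cells, Rsad2 was found in 20 of 42 cells with Isg15 (47.6%) and in 15 of 102 cells without it (14.7%), at median depths of 2300 and 2334.5 UMIs. Thinned to 1000 UMIs the shares were 36.0% and 9.43%. The pattern was also seen among erythroid-like cells of the upper 2 globin bins alone, with Rsad2 in 16 of 30 cells with Isg15 (53.3%) and 6 of 44 without (13.6%). Isg20 did not follow either gene closely: it was found in 76.2% of erythroid-like cells with Isg15 and 67.6% of those without, and in 68.6% of cells with Rsad2 and 70.6% of those without.

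Across the 144 erythroid-like cells, after centring on library and cell group, the Pearson correlation of log values was 0.51 for Isg15 with Rsad2 and 0.18 for Isg15 with Isg20. Over all 880 cells it was 0.38 and 0.12. Cells share their library, their depth and free RNA, so these are descriptions. Outside erythroid-like cells the first pair still went together, with Rsad2 in 11 of 34 cells with Isg15 (32.4%) and 55 of 702 without (7.83%).

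**Figure D3:**
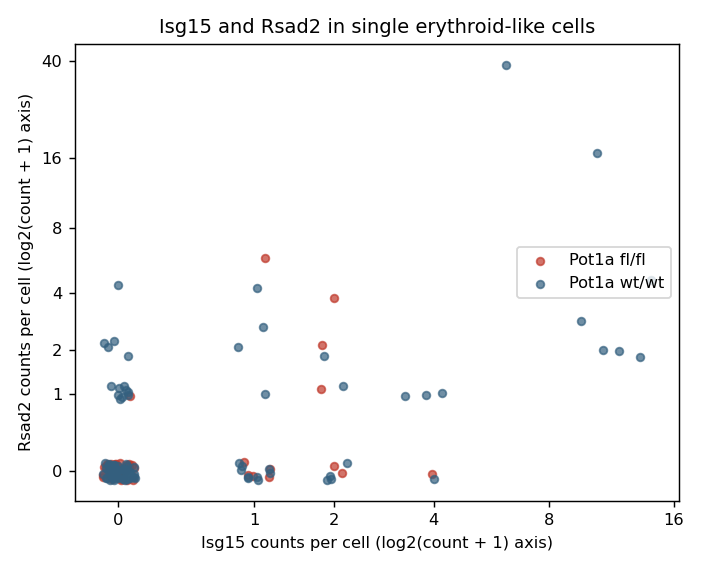
Counts of Isg15 and Rsad2 per cell in 144 erythroid-like cells, on log2(count + 1) axes with a small random shift to part the points; each point is a cell, coloured by genotype. Rsad2 was found in 20 of 42 cells with Isg15, and the 6 cells with 10 or more Isg15 counts were of Pot1a wt/wt libraries and held Rsad2.

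Cells with counts of at least 3 different members were called interferon-high. There were 28 such cells of 880, of which 15 were erythroid-like, and those 15 each held Isg15, Rsad2 and Isg20. They held 93 Isg15, 87 Rsad2 and 43 Isg20 counts, but only 1 Ifit1, 3 Ifit2, 1 Usp18, 1 Irf7 and 1 Slfn4 count and 0 of Ifit3 and Oasl2. These 3 are the most abundant members in erythroid-like cells, so the threshold favours them. Levels varied widely between the 15 cells: 1 cell gave 40 of the Rsad2 counts, and another held 2 Isg15, 1 Rsad2 and 1 Isg20 counts. Among all 28 cells 3 were marked as doublets. Just inside the threshold stood 23 cells with 3 members and just outside it 73 cells with 2, both at similar depths (medians of 2692 and 2586 UMIs). The broadest single cell, of Pot1a fl/fl 4 in cluster 5, held 7 members and 12570 UMIs. By library, interferon-high cells numbered 1, 0, 1 and 4 in Pot1a fl/fl 1 to 4, and 5, 3, 4, 5 and 5 in Pot1a wt/wt 1 to 5. Of the erythroid-like ones 2 of 51 cells were Pot1a fl/fl and 13 of 93 were Pot1a wt/wt; these counts rest on the members' own values and carry no test. Thinned to 1000 UMIs, 7 interferon-high cells remained in all, 1 Pot1a fl/fl and 6 Pot1a wt/wt, and the erythroid-like ones were 0 Pot1a fl/fl and 6 Pot1a wt/wt.

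The genes most like the members in pattern were genes of the cells that held them. Over 8005 genes found in at least 20 cells, the genes with the highest correlations with the mean log level of the 10 members, within library and cell group and over 880 cells, included Hbb-bs (0.28), Hba-a2 (0.25), Hbb-bt (0.24), Retnlg (0.22), Hba-a1 (0.22), Mmp8 (0.20) and Mmp9 (0.20). Of these, 4 are globin genes and 3 are genes of late neutrophils.

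Other genes of the pathway were read from 4 lists. Of 16 interferon genes, the tables listed only Ifng, with 5 counts in 2 cells of cluster 7. The receptors and signalling genes were present in most lineages: Jak1 had 95.8 CPM in erythroid-like and 114 CPM in granulocyte-like cells, while Ifngr1, a receptor chain for interferon gamma, had 5.18 and 176 CPM, and Irf8, a factor of monocytes and B cells, had 7.77 and 20.6 CPM. Among sensors of foreign RNA and DNA, Eif2ak2 had 174 CPM in erythroid-like and 64.7 CPM in granulocyte-like cells, while Samhd1 had 36.3 and 84.0 CPM and Mb21d1 23.3 and 63.3 CPM in these cell groups. Among 53 other interferon-induced genes, the 3 most abundant were higher outside the erythroid-like cells, with Ly6e at 256 CPM there and 1230 CPM in monocyte/macrophage-like cells, Slfn2 at 20.7 and 964 CPM, and Psmb8, an immunoproteasome subunit, at 7.77 and 321 CPM.

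A small number of them did share the erythroid pattern, and the following pair was chosen after its values were seen. Ube2l6 encodes the enzyme that carries Isg15 protein to its targets. It was found in 38.2% of erythroid-like cells and 3.98% of B-lineage-like cells, at 212 and 20.9 CPM. In the 4 globin bins it stood at 149, 127, 173 and 514 CPM, and it was found in 60.0% of erythroid-like cells with Rsad2 and 31.2% of those without. The split by Isg15 was smaller: 42.9% of erythroid-like cells with Isg15 held Ube2l6, and 36.3% of those without. Cmpk2, a nucleotide kinase gene 12751 bases from Rsad2 on the same chromosome, was found in 23.6% of erythroid-like and 3.10% of B-lineage-like cells, at 135 and 17.7 CPM. It did not follow globin, with 99.3, 172, 127 and 147 CPM in the 4 bins. Irf9 stood at 80.3 CPM in erythroid-like cells.

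The genotypes were then compared, to ask whether the interferon-induced genes of blood cells differ when the mesenchymal cells around them lack Pot1a. In whole marrow Isg15, Rsad2 and Isg20 were lower on average in Pot1a fl/fl libraries, but no member passed the test. Isg15 had 25.8, 7.12, 58.6 and 57.3 CPM in Pot1a fl/fl 1 to 4, and 139, 78.3, 21.4, 68.3 and 391 CPM in Pot1a wt/wt 1 to 5. The groups overlap through Pot1a wt/wt 3. Rsad2 had 30.1, 17.8, 83.7 and 62.5 CPM in Pot1a fl/fl 1 to 4, and 326, 71.8, 42.7, 50.5 and 209 CPM in Pot1a wt/wt 1 to 5. Pot1a wt/wt 1 and 5 stand far above the other 7 libraries. Isg20 had 123, 53.4, 134 and 104 CPM in Pot1a fl/fl 1 to 4, and 227, 157, 153, 128 and 223 CPM in Pot1a wt/wt 1 to 5. Here the groups overlap only between Pot1a fl/fl 3 and Pot1a wt/wt 4.

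**Figure D4:**
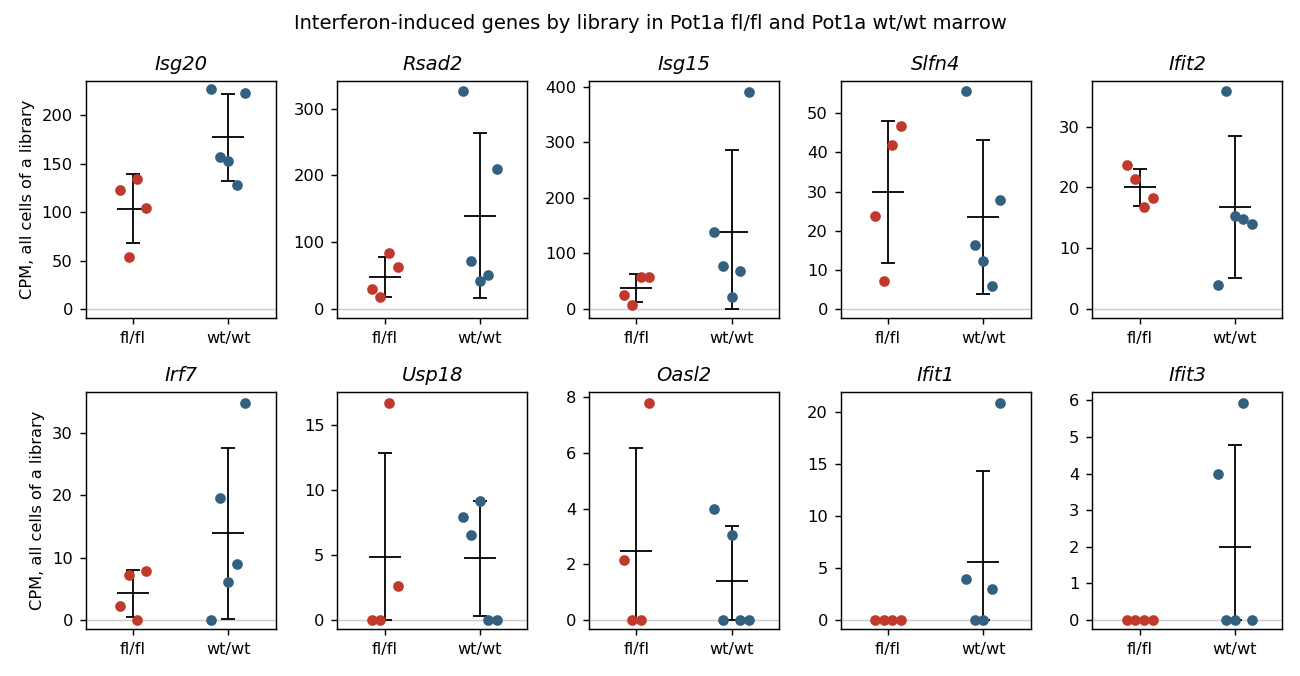
Level (CPM over all cells of a library) of each member; each point is a library, 4 Pot1a fl/fl on the left (red) and 5 Pot1a wt/wt on the right (blue), with the mean and SD (lower bars end at 0) and a separate scale in each panel. Isg20 averages 103 and 177 CPM with little overlap, while the means of Isg15 and Rsad2 in Pot1a wt/wt libraries are raised by 1 or 2 libraries.

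The log2 difference was −1.85 ± 0.67 (SE) for Isg15, −1.61 ± 0.61 for Rsad2 and −0.75 ± 0.29 for Isg20 (edgeR quasi-likelihood test, 4 against 5 libraries). Their adjusted p-values over 4559 genes were 0.469, 0.492 and 0.497. Of all genes tested 0.0658% were called, and of the 3 members that passed the filter on low counts 0 were called. Before adjustment by edgeR these 3 were below 0.05, as were 364 of the 4559 genes. DESeq2 gave no adjusted p for any of the 10 members, so it could call none. Before its adjustment 3 members were below 0.05, as were 411 of 15264 genes. Without the filter on low counts, edgeR called Isg15 and Rsad2 lower in Pot1a fl/fl marrow (adjusted p = 5.78e-05 and 0.000507), beside 0.151% of 15264 genes called lower and 0.452% called in either direction, so the call depends on this choice. With Pot1a wt/wt 2 and 3 as 1 library the differences were −2.07, −1.81 and −0.80. The Isg15 difference was −1.07 without Pot1a wt/wt 5, and that of Rsad2 was −0.85 without Pot1a wt/wt 1.

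Sex was looked at because 1 of 4 and 2 of 5 libraries were of male cells. Among female libraries Isg15 ran from 25.8 to 58.6 CPM in 3 Pot1a fl/fl libraries and from 68.3 to 391 CPM in 3 Pot1a wt/wt libraries, and among male libraries it was 7.12 CPM in the Pot1a fl/fl library and 21.4 and 78.3 CPM in the 2 Pot1a wt/wt libraries. The groups did not overlap within either sex. The male Pot1a fl/fl value rests on 2 counts, and the 2 male Pot1a wt/wt libraries, with 7 and 24 counts, share 19 barcodes. For Rsad2 and Isg20 the groups overlapped among the female libraries. With sex in the edgeR model the differences were −2.18 ± 0.53 for Isg15, −1.83 ± 0.49 for Rsad2 and −0.88 ± 0.27 for Isg20, and the adjusted p-values were 0.226, 0.298 and 0.32.

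The other 7 members did not pass the filter on low counts. Slfn4 averaged 29.9 ± 18.2 CPM in Pot1a fl/fl and 23.6 ± 19.6 CPM in Pot1a wt/wt libraries (SD, n = 4 and 5), and Ifit2 20.0 ± 3.10 and 16.8 ± 11.6 CPM. Irf7 averaged 4.27 ± 3.80 and 13.9 ± 13.7 CPM. Ifit1 and Ifit3 had 0 counts in all Pot1a fl/fl libraries, and in Pot1a wt/wt libraries 5 counts in 3 libraries and 3 counts in 2. Usp18 had 3 and 7 counts, and Oasl2 4 and 2. All of these differences are smaller than the spread between libraries or rest on a few molecules.

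A whole-marrow level holds both the number of cells that express a gene and their level, and fewer erythroid cells and less RNA per cell cannot be told apart in it. Pot1a fl/fl libraries held 18, 6, 14 and 13 erythroid-like cells and Pot1a wt/wt libraries 22, 19, 20, 20 and 16. Within erythroid-like cells, Isg15 stood at 71.5, 164, 255 and 215 CPM in Pot1a fl/fl 1 to 4, and at 537, 380, 85.3, 334 and 1532 CPM in Pot1a wt/wt 1 to 5. All Pot1a fl/fl libraries lie below 4 of the 5 Pot1a wt/wt libraries. Rsad2 had 0 counts in Pot1a fl/fl 1 and 2 and 319 and 215 CPM in Pot1a fl/fl 3 and 4, against 1241, 220, 171, 167 and 366 CPM in Pot1a wt/wt 1 to 5. Isg20 stood at 601, 737, 638 and 502 CPM in Pot1a fl/fl 1 to 4, and at 667, 600, 478, 500 and 899 CPM in Pot1a wt/wt 1 to 5, with wide overlap.

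**Figure D5:**
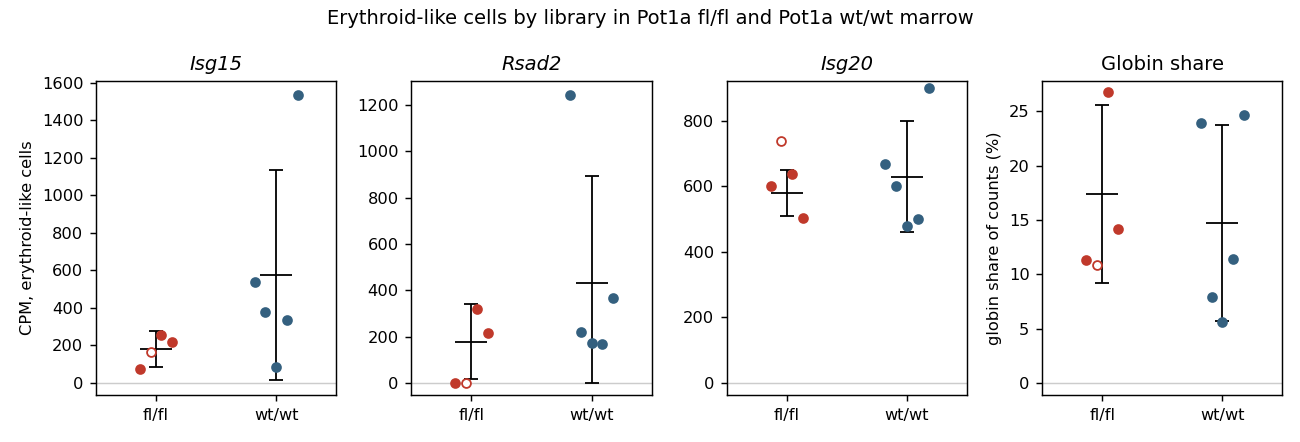
Level (CPM) of Isg15, Rsad2 and Isg20 in erythroid-like cells and their globin share (% of counts) by library, Pot1a fl/fl on the left (red) and Pot1a wt/wt on the right (blue), with the mean and SD (lower bars end at 0). The open circle is Pot1a fl/fl 2, which held 6 erythroid-like cells and is left out of the mean and the test. The globin shares of the genotypes overlap widely.

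For the test Pot1a fl/fl 2, with 6 cells, was left out. Isg15 averaged 181 ± 96.6 CPM in Pot1a fl/fl and 574 ± 560 CPM in Pot1a wt/wt erythroid-like cells (SD, n = 3 and 5), with a log2 difference of −1.86 ± 0.81 (SE). Rsad2 averaged 178 ± 163 and 433 ± 459 CPM, with a difference of −1.82 ± 0.93, and Isg20 580 ± 70.2 and 629 ± 169 CPM, with a difference of −0.12 ± 0.33. By edgeR the share of genes called was 0% of 1036 tested, 26 genes were below 0.05 before adjustment, and 0 members were called. Before adjustment 1 member, Isg15, was below 0.05 by edgeR and 0 by DESeq2, which called 0. Without Pot1a wt/wt 5 the Isg15 difference was −1.11, and that of Rsad2 was −0.75 without Pot1a wt/wt 1 and −0.79 without Pot1a fl/fl 1. These libraries therefore do not show whether erythroid cells of the genotypes differ in Isg15 or Rsad2.

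The globin share, which went with Isg15 and Rsad2 from cell to cell, overlapped between genotypes. It was 11.3, 10.8, 26.7 and 14.2% of erythroid-like counts in Pot1a fl/fl 1 to 4, and 23.9, 7.93, 5.64, 11.4 and 24.7% in Pot1a wt/wt 1 to 5. Pot1a wt/wt 1 and 5, the libraries with the highest Rsad2 and Isg15, were among the 3 richest in globin, but Pot1a fl/fl 3 was the richest of all and stood at 255 CPM of Isg15. In the 2 upper globin bins alone, Isg15 was found in 7 of 26 Pot1a fl/fl cells (26.9%) and 23 of 48 Pot1a wt/wt cells (47.9%), and Rsad2 in 4 (15.4%) and 18 (37.5%). Cells with Isg15 were 1 of 7, 1 of 2, 2 of 12 and 3 of 5 in Pot1a fl/fl 1 to 4. They were 9 of 19, 3 of 6, 1 of 3, 2 of 9 and 8 of 11 in Pot1a wt/wt 1 to 5, so most were of Pot1a wt/wt 1 and 5. By library, Isg15 over all cells of these bins ran from 48.3 CPM (1 count) to 341 CPM (5 counts) in Pot1a fl/fl. It ran from 293 CPM (2 counts) to 2111 CPM (45 counts) in Pot1a wt/wt libraries. Pot1a fl/fl 2, left out of the test, is included here with 2 cells. The part of globin content in the genotype values was not tested.

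Outside erythroid-like cells the genotypes overlapped. Isg15 averaged 21.1 ± 16.4 CPM in Pot1a fl/fl and 32.6 ± 32.1 CPM in Pot1a wt/wt libraries over all such cells (SD, n = 4 and 5), Rsad2 36.5 ± 13.1 and 65.9 ± 61.2 CPM, and Isg20 43.4 ± 16.6 and 71.8 ± 23.9 CPM. In granulocyte-like, monocyte/macrophage-like and B-lineage-like cells, no member had enough counts to be tested (0%, 0% and 0.0662% of 1053, 276 and 1510 genes were called by edgeR). With no filter on low counts edgeR and DESeq2 called 0 members in each. Before adjustment 1 member was below 0.05 (edgeR, monocyte/macrophage-like cells), beside 354 of 8991 genes. Slfn4 in granulocyte-like cells averaged 80.4 ± 56.7 CPM in Pot1a fl/fl and 77.5 ± 51.6 CPM in Pot1a wt/wt libraries (SD, n = 4 and 5).

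Whether the genotype effect differed between erythroid-like and granulocyte-like cells was tested directly, with each library giving both sums. The log2 difference of the effects was −2.16 ± 0.89 (SE) for Isg15, −1.63 ± 0.81 for Rsad2 and 0.73 ± 0.82 for Isg20. By edgeR 0% of 1783 genes were called, with adjusted p-values of 0.951 for Isg15 and 0.98 for Rsad2. Before adjustment these 2 members were below 0.05, as were 87 of the 1783 genes, and DESeq2 was not run on this model. Without Pot1a fl/fl 1 the differences were −1.03 for Isg15, −0.45 for Rsad2 and −0.14 for Isg20, with 0 of the 3 below 0.05 before adjustment, and that of Rsad2 was −1.01 without Pot1a wt/wt 1. Isg20 stood at 0.15 without Pot1a wt/wt 1 and at 1.5 without Pot1a fl/fl 4, and Rsad2 at −2.80 without Pot1a fl/fl 4. A difference between lineages was thus not shown.

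No gene of the pathway lists passed the test between genotypes in whole marrow. Of the receptors and signalling genes 8 were tested, with a median log2 difference of −0.13, of the sensors 5 (median −0.09) and of the other interferon-induced genes 16 (median −0.16), beside a median of −0.0017 over all genes. The most different of those named was Ifngr1, at 103 to 164 CPM in Pot1a fl/fl and 39.7 to 119 CPM in Pot1a wt/wt libraries (log2 difference 0.95 ± 0.29, adjusted p = 0.351 by edgeR). The erythroid partner genes did not follow Isg15 in their means: Ube2l6 averaged 286 ± 132 CPM in Pot1a fl/fl and 198 ± 91.6 CPM in Pot1a wt/wt erythroid-like cells (SD, n = 3 and 5), and Cmpk2 159 ± 168 and 121 ± 61.1 CPM.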

How the data were processed

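The authors sequenced Drop-seq libraries of bone marrow, aligned reads with STAR to mm10 and deposited tables of whole-number counts per gene and barcode, made with the Drop-seq software (no versions given in the sources used here). The study's text mentions counts of reads, but the values were treated as UMI counts. Each table holds 100 barcodes, picked in a way that is not stated.

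Barcodes under 200 UMIs or over 25% mitochondrial counts were dropped; total counts per library were 119459 to 465277. Scrublet (scanpy 1.11.5, score above 0.09) marked 27 doublets, which stayed in except in an alternative. Clusters were made in Seurat 5.3.0 (R 4.3.3; anchor integration, 2000 variable genes without the interferon-induced genes, 20 components, resolution 1) and named by the marker list with most of its genes, at least 3, among the 50 leading genes. A cell type name rests on these rebuilt clusters. Counts were summed per library and cell group of at least 10 cells (5 for monocyte/macrophage-like cells) and tested by the quasi-likelihood method of edgeR 4.0.16 after TMM scaling and filterByExpr, with Benjamini-Hochberg adjustment over all genes at 0.05. Alternatives included DESeq2 1.42.0, no filter on low counts, other clusterings, the replicate block and leaving out each library. Gene positions are from GENCODE (GRCm38).

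All 10 members are named. Of the pathway lists, genes past the threshold are named and otherwise up to 3 per list by total count; genes of like pattern are taken from the 8 with the highest correlation, of which 1 is not reported here. The members and lists were chosen with earlier results of these data known.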

Additional observations from a re-analysis of the deposited data

Results flagged for a closer look

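Among 21 sets of 4 or 5 libraries, 2 held a library that stood apart from the rest of its group by Dixon's test, which chance does in about 1 in 20. Rsad2 in erythroid-like cells was at 1241 CPM in Pot1a wt/wt 1 and at 167 to 366 CPM in the other Pot1a wt/wt libraries. Of its 67 counts there 40 came from 1 cell with 60.2% globin, and without that cell the library stood at 523 CPM, still above the others. Rsad2 in B-lineage-like cells was at 250 CPM in Pot1a wt/wt 5 and at 15.9 to 61.1 CPM in the other Pot1a wt/wt libraries. This rests on 7 counts in 7 of 25 cells. The globin share of B-lineage-like cells in that library was 2.73%, against 0.136 to 1.54% in the other 8 libraries, and its part in the Rsad2 value was not tested.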

How the results depend on the processing

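The number of members called between genotypes in whole marrow was 0, and 2 without the filter on low counts; in the other 17 settings it stayed at 0 (DESeq2, 1 of these, gave the members no adjusted p), and leaving out each library gave 0 to 0. The cause was not tested. The number of all genes called was 3 in the chosen fit, 69 without the filter, 12 by DESeq2 and 6 with sex in the model. In erythroid-like, granulocyte-like, monocyte/macrophage-like and B-lineage-like cells and for the difference between lineages, 0 members were called in every setting (0 to 0 leaving out each library). Isg15, Rsad2 and Isg20 kept a negative difference in whole marrow in all 18 alternatives, with ranges leaving out each library of −2.26 to −1.07, −1.87 to −0.85 and −0.88 to −0.54. Without the cell with most counts of each gene in each library, an alternative chosen after seeing the data, they were −1.65, −1.54 and −0.83. In erythroid-like cells the ranges were −2.27 to −1.11, −2.65 to −0.75 and −0.25 to 0.075, and Isg20 turned positive without Pot1a wt/wt 5 (0.075) and with the replicate block (0.059). For the difference between lineages the ranges were −2.75 to −1.03, −2.80 to −0.45 and −0.14 to 1.5, Isg20 turning negative without Pot1a fl/fl 1. The replicate numbers only name the libraries: same-numbered libraries correlated at −0.16 to 0.01, and with the replicate block 0 members were called in whole marrow. The share of erythroid-like cells with Isg15 was 29.2%, and 19.1% after thinning to 1000 UMIs. Interferon-high cells numbered 28, 7 after thinning and 101 with a threshold of 2 members. The share with Isg20 was 56.2% without integration. At this depth 7 of the 10 members did not pass the filter on low counts in whole marrow.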

Other observations

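Of 36 other interferon-induced genes with at least 20 counts, 5 had their highest level in erythroid-like cells (Cmpk2, Herc6, Slfn3, Irgm1 and Ube2l6), 11 in monocyte/macrophage-like cells, 10 in cluster 7, 6 in the mesenchymal-like cluster, 2 in granulocyte-like and 2 in B-lineage-like cells. Irgm1 (85.5 CPM in erythroid-like and 84.6 CPM in B-lineage-like cells) and Slfn3 (41.4 CPM in erythroid-like and 39.9 CPM in granulocyte-like cells) were near ties. Of 8 sensors of RNA and DNA with as many counts, 1, Eif2ak2, was highest in erythroid-like cells, 5 in monocyte/macrophage-like cells, 1 in cluster 7 and 1 in the mesenchymal-like cluster. The last was Ifih1, at 131 CPM from 7 counts, against 101 CPM from 39 counts in erythroid-like cells. Of the other genes highest in the mesenchymal-like cluster, Xaf1, Dtx3l, Trim25 and Lgals3bp had 3 counts each there. All these levels are summed over cells of both genotypes and carry no test.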
